A study of Mus musculus with 2 samples.

Results

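Chemokines are small secreted proteins that guide moving cells, above all leukocytes, along a gradient. They are grouped into CC, CXC and CX3C ligands by the spacing of their first cysteines. Their receptors span the membrane and signal through Gi proteins, and atypical receptors bind ligand and remove it without this signal. Some ligands, such as Cxcl12 and Cxcl13, are made at rest to place cells in a tissue, and others, such as Cxcl1, Cxcl2 and Ccl2, are induced in inflammation through factors of the NF-kB family. In the lacrimal gland, which makes the watery part of tears, they are best known from autoimmune disease of the adult gland, where lymphocytes gather around ducts.

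The set comprised every gene in the files named as a CC or CXC ligand or receptor, with Pf4, Ppbp, Cx3cl1, Cx3cr1, Ackr1, Ackr3 and Xcr1. It held 64 of 27775 features, 44 of them ligands and 20 receptors, under 59 symbols. They were followed in single cells of lacrimal glands at postnatal day 4 (P4) and at embryonic day 16 (E16), all from wild-type mice of the outbred CD1 stock with no treatment named in the labels. Glands were pooled within a stage and dispersed with Liberase TM and DNaseI into 1 library, and how many animals went into a pool was not found in the labels. Since each stage was 1 library there was no replicate check and no test between stages, and a difference between P4 and E16 cannot be told apart from one between these 2 preparations. The intervals given are 95% intervals for counting error only.

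The P4 library held 687 barcodes with 2712614 UMIs, each UMI (unique molecular identifier) standing for 1 captured transcript, and the E16 library held 437 barcodes with 2234700 UMIs. Barcodes with at least 200 detected genes were kept as cells, 406 in P4 and 259 in E16, with a median of 3767 UMIs in P4 and 5802 in E16. The libraries shared 0 cell barcodes. Cells were clustered without any chemokine or receptor gene, so that no member of the set helped to define the classes, and clusters were called by their markers. Mesenchyme-like cells numbered 177 in P4 and 99 in E16, epithelial-like cells 98 in P4 and 86 in E16, endothelial-like cells 22 in P4 and 10 in E16, and smooth muscle- or myoepithelial-like cells 9 in P4 and 16 in E16. Macrophage-like cells, with all 9 markers of their list detected, numbered 46 in P4 and 1 in E16. Cells called monocyte- or dendritic-like on 3 markers, Cd74, H2-Ab1 and Plac8, numbered 16 in P4 and 7 in E16. T or innate lymphoid-like cells numbered 18 in P4 and 0 in E16, mast-like cells 4 in P4 and 9 in E16, erythroid-like cells 12 in P4 and 25 in E16, and glial-like cells 4 in P4 and 6 in E16.

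Of the 64 features, 23 (18 ligands and 5 receptors) reached 30 UMIs in the kept cells of both libraries together. Another 6 had 10 to 29 UMIs, namely Ackr1 (29), Cxcl14 (21), Ccl20 (17), Cxcr4 (17), Cx3cl1 (12) and Ccl25 (10), and 16 had 1 to 9. The features at 1 to 9 UMIs were Ccr7, Ccl5, Ccl8, Cxcr3, Ppbp, Ccl28, Cxcl3, Ccl1, Ccl17, Ccl19, Ccl21a, Ccr9, Cxcl5, Cxcl9, Cxcr2 and Cxcr5. No UMI was counted for 19 features, among them Ccr3, Ccr4, Ccr6, Ccr8, Ccr10, Cxcr1, Xcr1, Ccl22, Ccl26, Cxcl15, Ccl21b, Ccl21c and Ccl27b. Several identifiers carry the symbols Ccl21a, Ccl21c and Ccl27a, which stand for near-identical gene copies, so their counts are uncertain. Ligand UMIs summed to 6739 in P4, which is 3411 CPM (UMIs per 1000000 UMIs of the cells counted), against 1308 and 764 CPM in E16. Receptor UMIs summed to 245 in P4 and 81 in E16, or 124.0 CPM and 47.3 CPM. Both sums were higher in P4. UMI counts are not scaled by gene length, so levels are compared between cells and stages for one gene, not between genes.

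The sums differed between cell classes. Ligands together made up 20185 CPM of the P4 macrophage-like cells (19431 to 20962), in which every cell held a ligand UMI and the median cell held 6 different ligands. They made up 8912 CPM of P4 monocyte- or dendritic-like cells and 8987 CPM of the E16 cells of that class. Mesenchyme-like cells had 3463 CPM of ligands in P4 (3336 to 3593) and 1069 CPM in E16 (991 to 1151). Epithelial-like cells had 540 CPM in P4 (489 to 596) and 189 CPM in E16 (156 to 227). Erythroid-like cells, which should lack these genes, had 6 ligand UMIs in 12 P4 cells and 5 in 25 E16 cells, at a median of 5439 and 6700 UMIs per cell. Erythroid marker genes took most of those UMIs, so a CPM of the whole class understates free RNA there. Per 1000000 UMIs outside these markers, erythroid-like cells had 991 ligand UMIs in P4 (364 to 2156) and 459.9 in E16 (149 to 1073), against 541 in P4 and 189.7 in E16 epithelial-like cells and 3470.5 in P4 and 1071 in E16 mesenchyme-like cells. Per cell, they had 0.5 ligand UMIs in P4 and 0.2 in E16, against 4.06 and 1.35 in epithelial-like and 15.9 and 7.05 in mesenchyme-like cells. On the first scale the epithelial-like sums of both stages and the E16 mesenchyme-like sum lay within or overlapped the erythroid-like intervals, and on the second scale they were higher. The part of free RNA in low ligand levels was not tested.

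**Figure D1:**
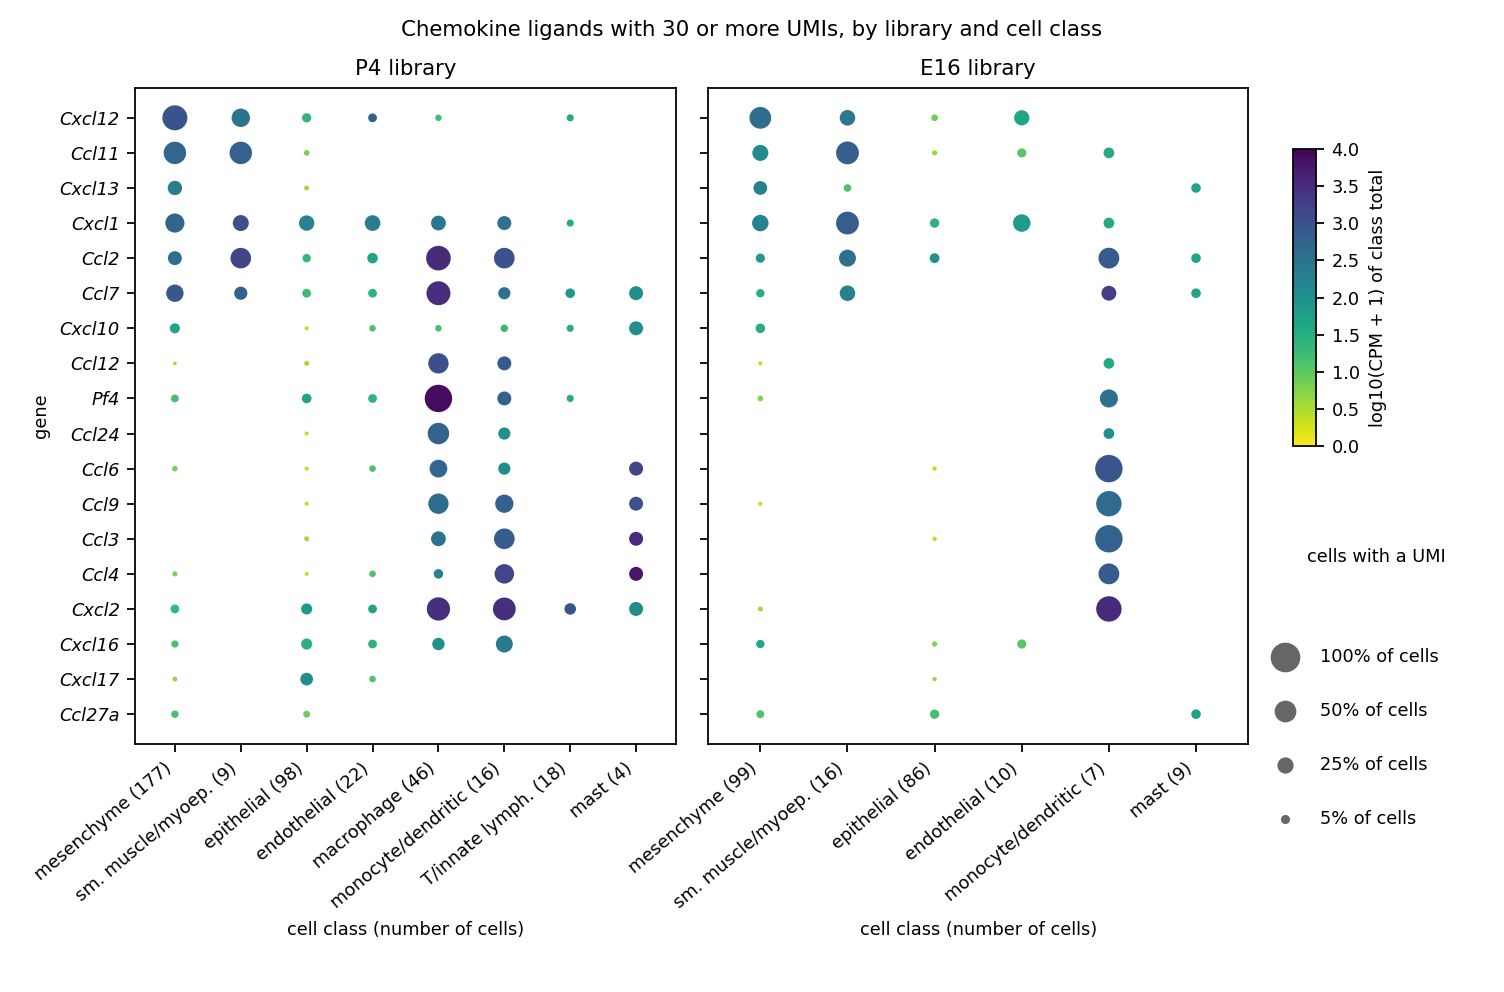
The 18 ligands that reached 30 UMIs, in P4 on the left and E16 on the right, for classes of at least 4 cells other than erythroid- and glial-like cells. Colour gives log10(CPM + 1) of the class total and dot area the share of its cells with a UMI; Pf4, Ccl2, Ccl7 and Cxcl2 are darkest in P4 macrophage-like cells, while Cxcl12, Ccl11 and Cxcl13 lie mainly in the mesenchyme and smooth muscle columns.

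A gene was said to have a leading class where its CPM in one class was at least 3 times that in every other class of at least 15 cells. In P4 this held for 11 of the 20 members with at least 30 UMIs, beside 15% of all 6315 genes tested. Macrophage-like cells led for Pf4, Ccl2, Ccl7, Ccl6 and Ccl24, monocyte- or dendritic-like cells for Ccl4, mesenchyme-like cells for Cxcl13 and Ccl11, epithelial-like cells for Cxcl17, T or innate lymphoid-like cells for Cxcr6 and endothelial-like cells for Ackr3. The Ackr3 level there was 3.21 times that of mesenchyme-like cells, and 1.70 times without the 1 endothelial-like cell that held 9 of 18 UMIs, which ends that call. The T or innate lymphoid-like class was not named in 3 of the alternatives, namely at least 300 or at least 500 detected genes and resolution 0.5, which ends the call for Cxcr6. The monocyte- or dendritic-like class was not named in 6, which likewise ends the call for Ccl4. Smooth muscle- or myoepithelial-like and mast-like cells, 9 and 4 in P4, were too few to enter. At the levels given below, the leads for Ccl2 and Ccl11 did not hold against the first. Those for Ccl4 and Ccl6 did not hold against the second, where 1 cell held most of the ligand UMIs. In E16 a leading class was found for 6 of 8 members, beside 12.3% of 6398 genes, but macrophage- and monocyte-like cells were too few to enter. Smooth muscle- or myoepithelial-like cells led there for Ccl2, Ccl7, Ccl11 and Cxcl1, mesenchyme-like cells for Cxcl13, and the call for Cxcl2 rested on 2 UMIs in mesenchyme-like cells. The E16 count was 1 with 1000 variable genes or with 30 components, and 3 when each library was clustered alone.

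Macrophage-like cells of P4 led for 5 ligands, with 16 ligand genes detected in 46 cells, against 20 in 177 mesenchyme-like and 24 in 98 epithelial-like cells. Pf4, also known as Cxcl4 and stored in platelet granules, had 1027 UMIs in these 46 cells, or 7689 CPM (7226 to 8174), and was found in all 46. In mesenchyme-like cells of the same library 12 of 177 cells held Pf4, each with 1 UMI, and the class level was 14.8 CPM. The summed markers of macrophages were 20290 CPM in macrophage-like and 44.3 CPM in mesenchyme-like P4 cells. The single E16 cell in this class held 21 Pf4 UMIs. Ppbp, the other main chemokine of platelet granules, had 4 UMIs in 3 of the P4 macrophage-like cells, and the summed platelet markers of the marker list had 0 CPM there.

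Ccl2, Ccl7 and Ccl12, which attract monocytes through Ccr2, were all counted in the macrophage-like cells. Ccl2 had 423 UMIs in 37 of 46 cells (3167 CPM, 2872 to 3484). Ccl7 had 411 UMIs in 35 of 46 cells (3077 CPM, 2787 to 3389.6). Ccl12, known in the mouse only as a further Ccr2 ligand, had 151 UMIs in 25 of 46 cells (1131 CPM, 957 to 1326). These genes lie in one stretch of chromosome 11 (GRCm38), Ccl2 at 82035571 to 82037453, Ccl7 at 82045712 to 82047525 and Ccl12 at 82101845 to 82103400. Ccl2 and Ccl7 are neighbours, while Ccl11, at 82057823 to 82062955, lies between Ccl7 and Ccl12. Ccl2 and Ccl7 were found together in 31 macrophage-like cells, which held 93.9% of that class's Ccl2 UMIs and 96.6% of its Ccl7 UMIs. Ccl7 was found in 83.8% of the macrophage-like cells with Ccl2 and in 76.1% of all cells of the class. Ccl12 was found in 56.8% of those with Ccl2 and 48.6% of those with Ccl7, close to its 54.3% of all. In P4 mesenchyme-like cells, where Ccl2 was found in 44 and Ccl7 in 70 of 177 cells, 28 cells held both, and Ccl7 was found in 63.6% of the cells with Ccl2 and in 39.5% of all. The mesenchyme-like cells with both were also deeper, with a median of 6049.5 UMIs against 4126 in the others. Ccl12 separated macrophage-like from mesenchyme-like cells, as it had 2 UMIs in 1 of 177 P4 mesenchyme-like cells (2.46 CPM, 0.298 to 8.90). Cxcl12 and Ccl11 went the other way, with Cxcl12 in 2 of 46 macrophage-like cells and Ccl11 in 0 of 46. Ccl12 was also found in 4 of 16 P4 monocyte- or dendritic-like cells, at 777 CPM, so macrophage-like cells did not lead for it.

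**Figure D2:**
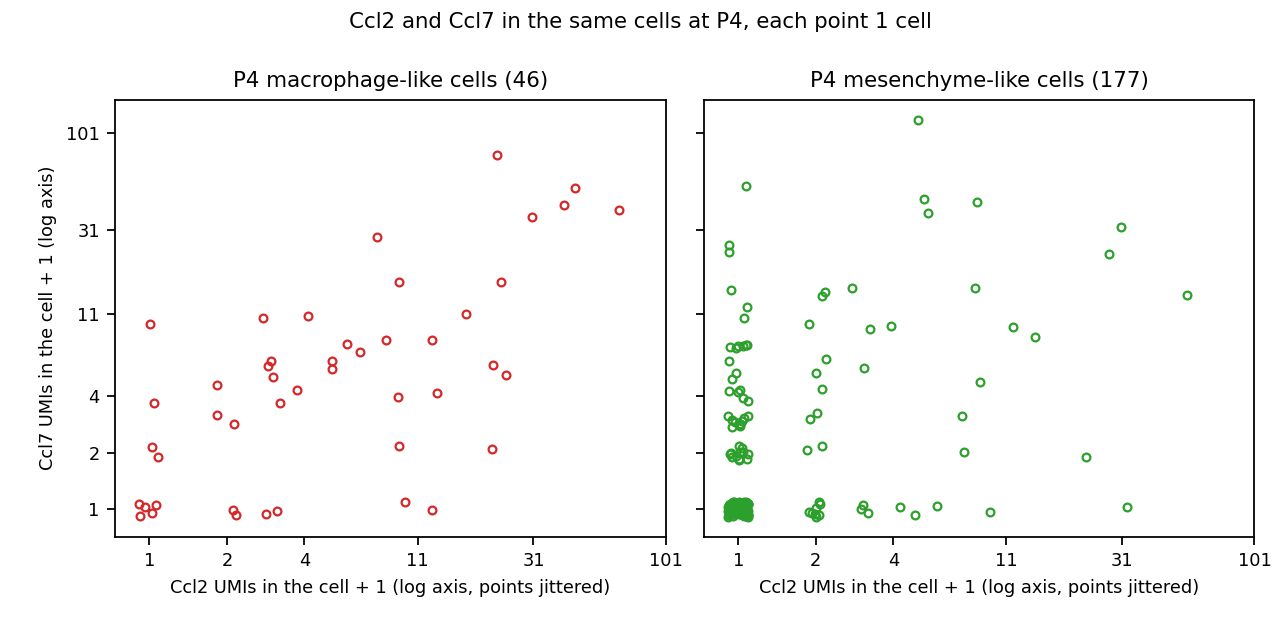
UMIs of Ccl2 (horizontal) and Ccl7 (vertical), each plus 1 on a log axis, in single P4 cells, with macrophage-like cells on the left and mesenchyme-like cells on the right, 1 point per cell and points jittered. In macrophage-like cells 37 of 46 held Ccl2, 35 held Ccl7 and 31 held both, and in mesenchyme-like cells 44 of 177 held Ccl2, 70 held Ccl7 and 28 held both.

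Further myeloid ligands separated macrophage-like from monocyte- or dendritic-like cells in P4. Ccl24, an eosinophil attractant that acts on Ccr3, had 554 CPM in macrophage-like cells (28 of 46 cells) and 97.1 CPM in monocyte- or dendritic-like cells (3 of 16 cells). Ccl6, a mouse ligand of Ccr1, had 487 CPM in macrophage-like cells and 116 CPM in monocyte- or dendritic-like cells. Ccl4, an attractant of monocytes and T cells, went the other way, with 157 CPM in macrophage-like and 1437 CPM in monocyte- or dendritic-like cells (1128 to 1804). Ccl3, a ligand of Ccr1, had 299 CPM in macrophage-like cells (214 to 408) and 718 CPM in monocyte- or dendritic-like cells (506 to 990). Ccl9, another Ccr1 ligand of the mouse, had 389 CPM in macrophage-like cells (291 to 511) and 602 CPM in monocyte- or dendritic-like cells (409 to 854), and these intervals overlap. Cxcl2, a neutrophil attractant acting on Cxcr2, had about the same level in both, 2830 CPM in macrophage-like cells (2552 to 3130) and 2738 CPM in monocyte- or dendritic-like cells (2304 to 3229).

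At E16 the 7 monocyte- or dendritic-like cells carried most of the Cxcl2, Ccl6, Ccl9 and Ccl3 counted. They held 96 of the 100 Cxcl2 UMIs of that library, 25 of its 26 Ccl6 UMIs, 12 of its 13 Ccl9 UMIs and 16 of its 27 Ccl3 UMIs. Most Pf4 and Ccl2 UMIs lay elsewhere, with 21 of 34 Pf4 UMIs in the single macrophage-like cell. Of 151 Ccl2 UMIs, 58 were in epithelial-like, 42 in mesenchyme-like and 24 in smooth muscle- or myoepithelial-like cells. By share of cells, Ccl2 was found in 57.1% of the 7 monocyte- or dendritic-like cells. It was found in 11.6% of epithelial-like, 10.1% of mesenchyme-like and 37.5% of smooth muscle- or myoepithelial-like cells. Pf4 was found in 42.9% of the 7 cells. In CPM, P4 and E16 monocyte- or dendritic-like cells had 2738 and 3357 for Cxcl2, 116 and 874 for Ccl6, 602 and 420 for Ccl9, and 1437 and 699 for Ccl4. Of the 53 Ccl7 UMIs in the E16 cells 52 lay in 1 cell. With 16 and 7 cells no ratio between the stages was counted for this class, and under several clusterings its cells joined the macrophage-like class or stayed unnamed.

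One P4 cell grouped with the mast-like cells stood out by its ligands. It held 102 ligand UMIs of its 2156, among them 50 of Ccl4, 27 of Ccl3, 14 of Ccl6 and 9 of Ccl9, while the other 3 cells of that class held 1, 1 and 0 ligand UMIs. The same cell had 49 UMIs of Mcpt8, a protease known from mouse basophils, and 9 of Il6. It had 0 of the mast cell proteases Cma1 and Tpsb2, of which the other 3 cells had 268 to 383 and 260 to 305 UMIs. That cell carried 33.1% of the Ccl4 UMIs and 25.5% of the Ccl3 UMIs of the P4 library.

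Mesenchyme-like cells were the main source of Cxcl12, the ligand of Cxcr4 and Ackr3 that retains blood cell precursors and guides vessels and nerves. They held 779 of 859 Cxcl12 UMIs in P4 and 243 of 273 in E16, or 90.7% and 89.0%. Cxcl12 was found in 147 of 177 P4 cells (83.1%, 76.7 to 88.3) and in 62 of 99 E16 cells (62.6%, 52.3 to 72.1). Its level was 959.6 CPM in P4 and 372 CPM in E16. In epithelial-like cells it was found in 10 of 98 P4 cells and 4 of 86 E16 cells, at 23.1 CPM and 6.53 CPM. A further 51 P4 UMIs were in endothelial-like cells, 48 of them in 1 cell. In erythroid-like cells Cxcl12 was found in 0 of 12 P4 and 2 of 25 E16 cells, Cxcl1 in 2 and 0, Ccl2 in 1 and 0, Ccl11 in 0 and 1, and Ccl7 in 0 of both.

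Of the 9 members with at least 30 UMIs in mesenchyme-like cells, 6 were at least 2-fold higher in P4 than in E16, beside 6.8% of the 5753 genes tested, and 1 was at least 2-fold lower, beside 13.7%. The median log2 ratio of the 9 was 1.53, against -0.19 for all genes tested. Of the 12 mesenchyme markers 9 were also at least 2-fold higher in P4 cells of this class, with a median log2 ratio of 1.27, so a rise of this size was not particular to the members. P4 cells of the class came mainly from clusters 7, 11 and 13 and E16 cells from clusters 2 and 1, so that the comparison is also one between different clusters. Ccl7 had 656 UMIs (808 CPM) in P4 and 19 UMIs (29.1 CPM) in E16, a ratio of 27.8 (17.6 to 46.4). Ccl2 had 291 UMIs (358 CPM) in P4 and 42 UMIs (64.3 CPM) in E16, a ratio of 5.57 (4.02 to 7.90). With each library clustered alone these ratios were 64.6 and 8.89. Both genes were patchy, with Ccl7 in 70 of 177 P4 cells and 8 of 99 E16 cells, and Ccl2 in 44 P4 cells and 10 E16 cells. Ccl11, the eosinophil attractant eotaxin and a ligand of Ccr3, had 385 UMIs (474 CPM) in P4 and 81 UMIs (124 CPM) in E16, a ratio of 3.82 (3.0 to 4.92). Cxcl1, a neutrophil attractant acting on Cxcr2, had 414 UMIs (510.0 CPM) in P4 and 115 UMIs (176 CPM) in E16, a ratio of 2.90 (2.35 to 3.59). The Cxcl12 ratio was 2.58 (2.23 to 2.99). The receptor among them was Ackr3, which takes up Cxcl12, with 54 UMIs (66.5 CPM) in P4 and 10 UMIs (15.3 CPM) in E16, a ratio of 4.34 (2.19 to 9.57).

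The other members counted in these cells were Cxcl13, Cxcl10 and Cxcl16, which were not 2-fold higher. Cxcl13, which attracts B cells through Cxcr5, had 169 UMIs (208 CPM) in P4 and 117 UMIs (179 CPM) in E16, a ratio of 1.16 (0.912 to 1.48). Cxcl10, an interferon-induced ligand of Cxcr3, had 35 UMIs (43.1 CPM) in P4 and 20 UMIs (30.6 CPM) in E16, a ratio of 1.41 (0.790 to 2.57). Cxcl16, the membrane-bound ligand of Cxcr6, was counted 11 times in P4 and 25 times in E16, a ratio of 0.354 (0.157 to 0.746). Of its 25 E16 UMIs 18 lay in 1 cell, and without that cell the ratio was 1.25.

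**Figure D3:**
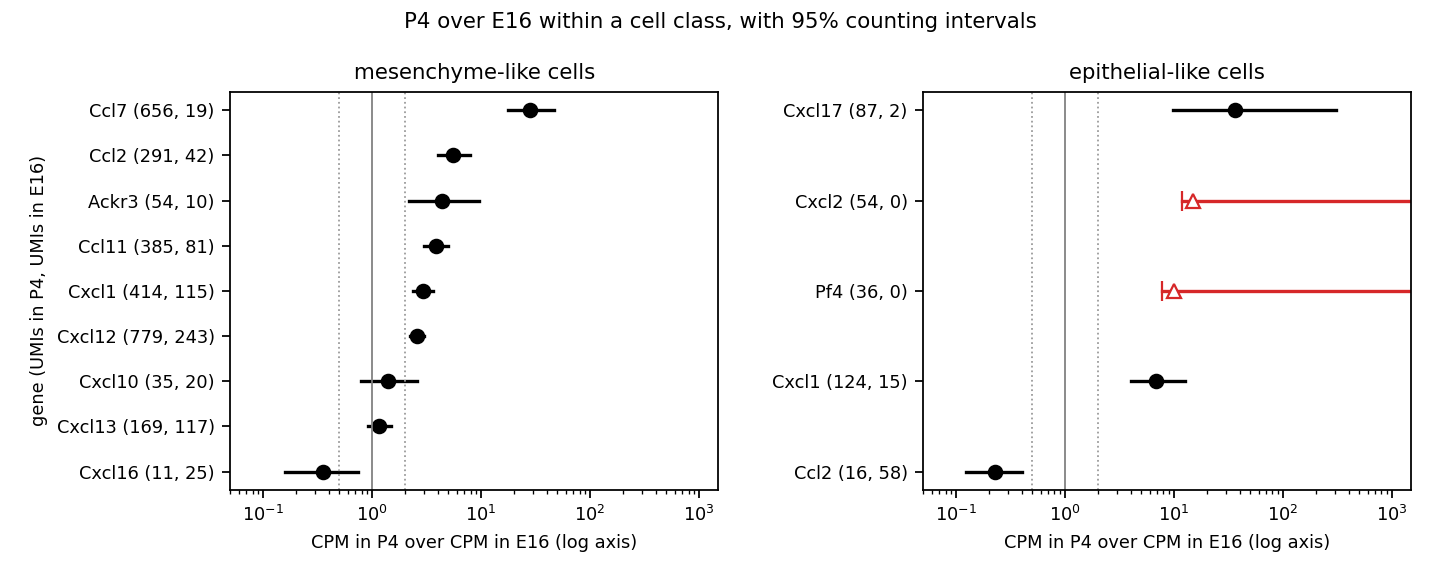
CPM in P4 over CPM in E16 on a log axis, for members with at least 30 UMIs in mesenchyme-like cells (left) and epithelial-like cells (right), with UMIs of P4 and then E16 in brackets. Points are ratios and lines 95% counting intervals; red open triangles are genes at 0 UMIs in E16, set to 3 counts, with the lower end of the interval, and dotted lines mark 2-fold. In mesenchyme-like cells Ccl7 lies farthest right at 27.8, and Ccl2 lies right of 1 on the left panel and left of 1 on the right panel.

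Mesenchyme-like cells had a median of 4396 UMIs in P4 and 6125 in E16, so the P4 cells were the shallower ones. After every cell was thinned to 1342 UMIs, which left out 2 cells in each library, Cxcl12 was found in 61.7% of P4 and 26.8% of E16 cells. The thinned shares were 33.1% and 10.3% for Ccl11, 27.4% and 10.3% for Cxcl1, 25.1% and 2.06% for Ccl7, 15.4% and 3.09% for Ccl2, and 9.14% and 0% for Ackr3. Cxcl13 again differed little, with 16% in P4 and 12.4% in E16. Enzyme digestion can induce immediate early genes such as Fos and Junb, and their summed level in mesenchyme-like cells was 16271 CPM in P4 and 13510 CPM in E16. Of 14 measured genes of that list 0 passed 2-fold in either direction. The part of digestion in the levels of Ccl2, Cxcl1 and Ccl7 was not tested.

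The mesenchyme-like clusters differed in which ligands they held. In P4, cluster 7 was led by Kera, a corneal keratan sulphate proteoglycan, and Dcn. Clusters 11 and 13 were led by Mfap5, Clec3b and Ly6a, and cluster 13 also by Dpt and Pi16, genes known from fibroblasts around vessels. Ccl7 had 237 CPM in cluster 7 (184 to 299.9), 1460.1 CPM in cluster 11 (1315 to 1617) and 1034 CPM in cluster 13 (895 to 1188), in 14 of 79, 28 of 42 and 23 of 43 cells. The richest cell held 26 of 68 Ccl7 UMIs in cluster 7, 116 of 369 in cluster 11 and 48 of 199 in cluster 13. Without these cells the levels were 148 CPM (107 to 200), 1033 CPM (909 to 1168) and 800 CPM (677 to 938). The intervals of clusters 11 and 13 then overlapped, and that of cluster 7 stayed below both. Cxcl13 ran the other way, with 330.5 CPM in cluster 7 (267 to 404), 174 CPM in cluster 11 (127 to 234) and 20.8 CPM in cluster 13 (5.66 to 53.2). Cxcl12 had 936 CPM in cluster 7, 1286 CPM in cluster 11 and 478 CPM in cluster 13. Ackr3 had 24.4 CPM in cluster 7 (9.79 to 50.2), 75.2 CPM in cluster 11 (45.3 to 117) and 140.3 CPM in cluster 13 (92.4 to 204). So in P4 cluster 13 had the lowest Cxcl12 and Cxcl13 of the 3 and the highest Ackr3, although the Ackr3 intervals of clusters 11 and 13 overlap. Ccl11 was alike in all 3, at 466, 506 and 384 CPM in clusters 7, 11 and 13, with overlapping intervals.

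In E16 the Cxcl13 UMIs lay in cluster 2, with 255 CPM (209 to 308) in 19 of 65 cells, while cluster 1 had 17.9 CPM (3.68 to 52.2) in 3 of 19 cells. Ccl11 had 244 CPM (175 to 331) in cluster 1 and 93.6 CPM (66.9 to 127) in cluster 2, and Cxcl1 had 274 CPM (200.4 to 365) in cluster 1 and 149.7 CPM (115 to 191) in cluster 2. The Ccl11 difference rested largely on 1 cell with 24 of the 41 UMIs of cluster 1. For Cxcl1, the richest cell held 19 of 46 UMIs in cluster 1 and 19 of 64 in cluster 2. Without the richest cell of each cluster, Ccl11 had 107 CPM in cluster 1 (62.3 to 171) and 85.4 CPM in cluster 2 (59.8 to 118). Cxcl1 then had 169.8 CPM in cluster 1 (112 to 247) and 107.5 CPM in cluster 2 (78.4 to 144). Cluster 1 stayed the higher for each gene, with intervals that overlapped those of cluster 2. Cxcl12 was the same in clusters 1 and 2, at 268 and 267 CPM. Cluster 1 was led by Dcn, Kera and Dlk1, and cluster 2 by A230065H16Rik, Kera and Dlk1.

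**Figure D4:**
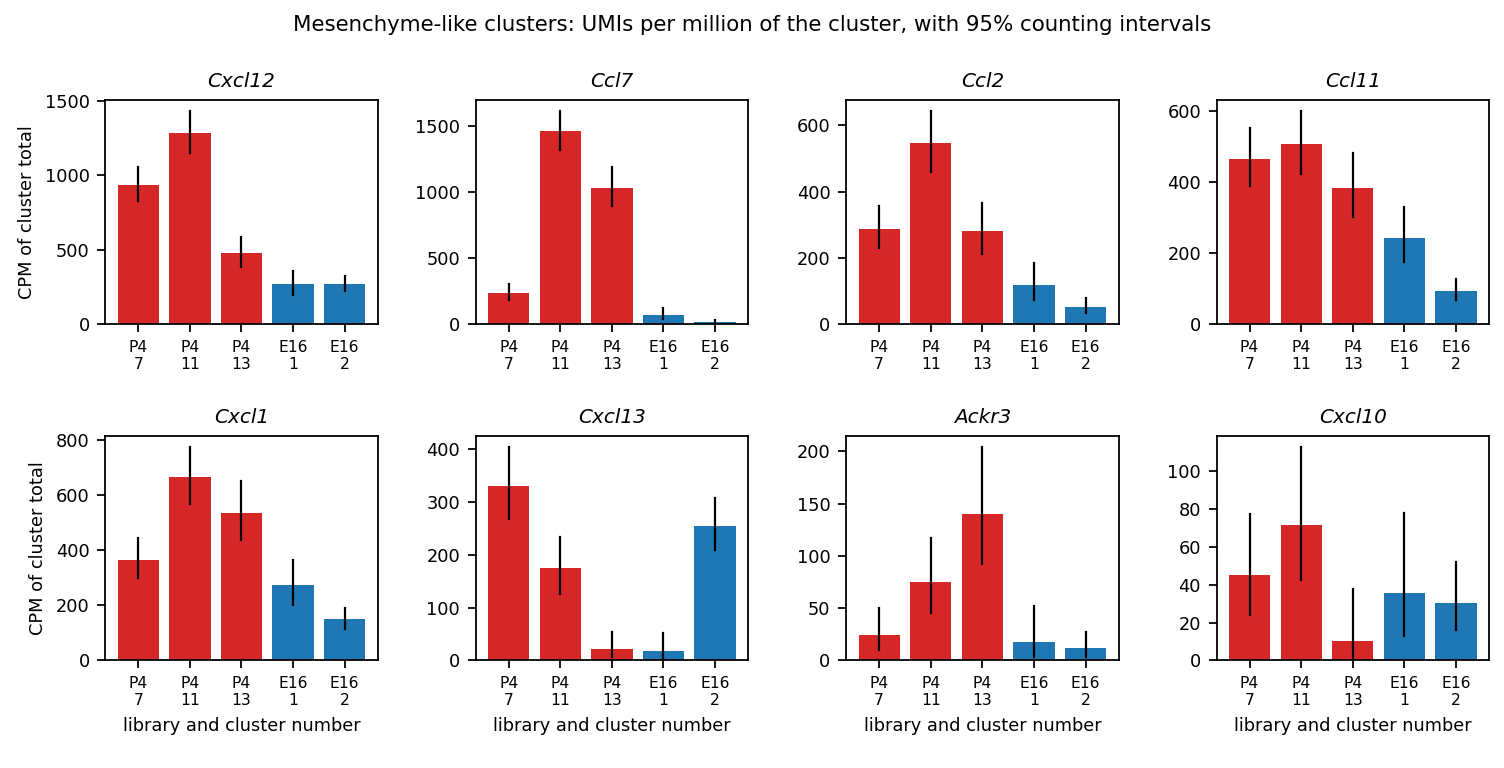
CPM of the cluster total for 8 members in the P4 mesenchyme-like clusters 7, 11 and 13 (red) and the E16 clusters 1 and 2 (blue), with 95% counting intervals as black lines and a separate axis from 0 for each gene. Ccl7 is highest in P4 clusters 11 and 13, Cxcl13 in P4 cluster 7 and E16 cluster 2, and Ackr3 in P4 cluster 13.

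Single cells often held several of these ligands. In P4 mesenchyme-like cells 105 of 177 held both Cxcl12 and Ccl11, and in E16 21 of 99 did. Ccl11 was found in 71.4% of the P4 cells with Cxcl12, beside 66.7% of all. In E16 these shares were 33.9% and 33.3%, so cells with Cxcl12 were close to the class. Cxcl12 was found in 46 of the 47 P4 cells with Cxcl13 (97.9%) and in 29 of the 34 with Ackr3 (85.3%), beside 83.1% of all P4 mesenchyme-like cells, so the share among cells with Ackr3 was close to that of the class. In E16 it was found in 7 of the 8 cells with Ackr3, beside 62.6% of all. Cells with both genes of a pair were deeper than the others, with a median of 5450 UMIs against 4144.5 for Cxcl12 with Ackr3 in P4.

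Smooth muscle- or myoepithelial-like cells, led by Actg2, Tagln and Rgs5, were few but rich in the same ligands. Ccl11 had 594 CPM in the 9 P4 cells (352 to 939) and 634 CPM in the 16 E16 cells (469 to 839), and lay in 6 and 11 cells. Cxcl1 had 1056 CPM in P4 (722 to 1491) and 660.2 CPM in E16 (492 to 868). Ccl2 had 1551 CPM in P4 (1140 to 2063), in 5 of 9 cells, and 311 CPM in E16 (199 to 462), in 6 of 16 cells. The Ccl7 level of 561 CPM in P4 rested on 1 cell with 16 of 17 UMIs, and in E16 Ccl7 had 168 CPM in 5 of 16 cells. Cxcl13 was not counted in the P4 cells and had 1 UMI in the E16 cells. The summed mesenchyme markers in this class were 14884 CPM in P4 and 9438 CPM in E16, and the summed pericyte markers 1485 CPM in P4 and 1152 CPM in E16, against 124 and 149 CPM in mesenchyme-like cells. Epithelial markers had 1 UMI in the P4 and 3 in the E16 cells of the class, so by these lists its cells were smooth muscle- or pericyte-like. The class name follows its marker list, and no myoepithelial part showed in these markers. The part of these marker levels in the ligand values was not tested.

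Epithelial-like cells had low ligand levels, and in P4 these were gathered in one cluster. Of the 5 members with at least 30 UMIs in the class, 4 were at least 2-fold higher in P4, beside 7.23% of 4966 genes tested, and 1 was at least 2-fold lower, beside 27.1%. The median log2 ratio of the 5 was 3.32, which is the Pf4 value with E16 set to 3 counts, and 2.78 without the cell that held 26 of 36 Pf4 UMIs. For all genes tested it was -0.53. When totals were formed without the 50 genes of most UMIs in either library, the median of all genes was -0.10, with 12.2% higher and 13.7% lower. Cxcl17, a chemokine of mucosal epithelium, had 87 UMIs (118 CPM) in 20 of 98 P4 cells and 2 UMIs (3.26 CPM) in 1 of 86 E16 cells, a ratio of 36.2 (9.72 to 303). Epithelial-like cells held 95.6% of the Cxcl17 UMIs of P4. Cxcl1 had 124 UMIs (168 CPM) in 30 P4 cells and 15 UMIs (24.5 CPM) in 9 E16 cells, a ratio of 6.88 (4.01 to 12.7). Cxcl2 had 54 UMIs in 15 P4 cells and 0 in E16, a ratio of 14.97 when the E16 class is set to 3 counts. The lower end of its interval was 11.8, and without the richest cell the ratio against the same floor was 10.2. Pf4 had 36 UMIs in P4 and 0 in E16, but 26 of these lay in 1 cell and without it the ratio against the same floor was 2.81. Macrophage markers summed to 61.1 CPM in P4 and 9.79 CPM in E16 epithelial-like cells, and their part in the Pf4 value was not tested. Of 7 measured mesenchyme markers 6 were at least 2-fold higher in P4 epithelial-like cells, with a median log2 ratio of 2.07. The part of stromal RNA in the Cxcl1 ratio was not tested.

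Cluster 9, led by Wfdc18, Krt18, Krt8 and Bpifa2, held 83 of the 87 Cxcl17 UMIs of the class in P4, in 17 of 33 cells. It also held 101 of the 124 Cxcl1 UMIs, in 22 of 33 cells, 44 of the 54 Cxcl2 UMIs and 19 of the 20 Cxcl16 UMIs, these in 14 of 33 cells. In CPM, Cxcl1 had 294 in cluster 9 (239 to 357), 21 in cluster 16 (7.71 to 45.8) and 13.7 in cluster 0 (0.347 to 76.4). Cluster 16, led by the secreted protein genes Dcpp3, Dcpp2 and Dcpp1, had 10.5 CPM of Cxcl17 (2.17 to 30.7). Only 8 E16 cells belonged to cluster 9, and most E16 cells of the class were in clusters 0 and 3. A difference between stages in the class and a difference in its cluster makeup cannot be told apart here.

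Ccl2 and Ccl20 were higher in E16 epithelial-like cells. Ccl2 had 16 UMIs (21.7 CPM) in 8 P4 cells and 58 UMIs (94.7 CPM) in 10 E16 cells, a ratio of 0.229 (0.123 to 0.405). Of the E16 UMIs 34 lay in 1 cell, and without that cell the ratio was 0.545 and no longer past 2-fold. Of the 58 E16 UMIs 54 were in cluster 3, led by Epcam, Perp and Fxyd3. Ccl20, an epithelial ligand of Ccr6, was counted in no other class and had 2 UMIs in 2 P4 cells and 15 UMIs in 4 E16 cells. Cxcl14, a ligand made by epithelia and stroma, lay mainly in mesenchyme-like cells, with 4 UMIs in P4 and 13 in E16. Ccl25, which draws cells bearing Ccr9, had 5 UMIs in P4 and 1 in E16 mesenchyme-like cells. Ccl27a, a ligand of Ccr10 known from skin epithelium, was spread thinly, with 5 UMIs in P4 and 9 in E16 epithelial-like cells, and 11 in P4 and 8 in E16 mesenchyme-like cells.

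Cxcl1 and Cxcl2 are neighbours on chromosome 5 (GRCm38), Cxcl1 at 90891241 to 90893115 and Cxcl2 at 90903871 to 90905938, both on the plus strand and 10755 bases apart, yet their source cells differed. In P4, Cxcl1 had 247 CPM in macrophage-like cells (170 to 347) and 510.0 CPM in mesenchyme-like cells (462 to 562), while Cxcl2 had 2830 CPM in macrophage-like cells and 20.9 CPM in mesenchyme-like cells (12.2 to 33.5). In P4 epithelial-like cells both were found, and 11 of the 15 cells with Cxcl2 also held Cxcl1, beside 30 of all 98. Cells with both were much deeper, with a median of 16851 UMIs against 3109 in the others. The promoters of Cxcl1 and Cxcl2, from RefSeq on GRCm38.p6, are printed from 130 to 30 bases before the start. They are shown since the induction of both genes through NF-kB is textbook knowledge and both hold the letters of its motif. Capitals mark matches to GGGA, any 4 bases and CC on either strand, where overlapping matches run together. The first is chr5:90891115-90891215 and the second is chr5:90903769-90903869.
Cxcl1: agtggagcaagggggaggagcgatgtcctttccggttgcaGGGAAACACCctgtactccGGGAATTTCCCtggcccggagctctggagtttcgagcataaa
Cxcl2: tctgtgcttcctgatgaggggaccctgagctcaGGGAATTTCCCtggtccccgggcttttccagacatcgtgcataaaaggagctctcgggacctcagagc
Both held GGGAATTTCCC, which is 2 overlapping matches on opposite strands, and Cxcl1 held a further match, GGGAAACACC. The motif was present in 20.7% of all 32851 promoters of the table and in 21 of the 51 promoters of member genes. Cxcl12, the ligand of most mesenchyme-like cells, had no match in its window of 300 bases. A match in these letters says nothing of whether the site was bound in these cells.

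Receptor transcripts were sparse and lay in few classes. Receptors summed to 404 CPM in macrophage-like cells of P4 (304 to 528), 815 CPM in P4 and 1469 CPM in E16 monocyte- or dendritic-like cells, 1532 CPM in P4 T or innate lymphoid-like cells (1121 to 2043), and 427 CPM in P4 and 167 CPM in E16 endothelial-like cells. Mesenchyme-like cells had 72.7 CPM in P4 (55.3 to 93.7) and 16.8 CPM in E16 (8.41 to 30.1), of which Ackr3 made up 54 of 59 and 10 of 11 UMIs. Epithelial-like cells had 5 receptor UMIs in P4 and 9 in E16. Smooth muscle- or myoepithelial-like cells had 0 receptor UMIs in both, which allows up to 99 CPM in P4 and 38.8 CPM in E16 at 3 counts.

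**Figure D5:**
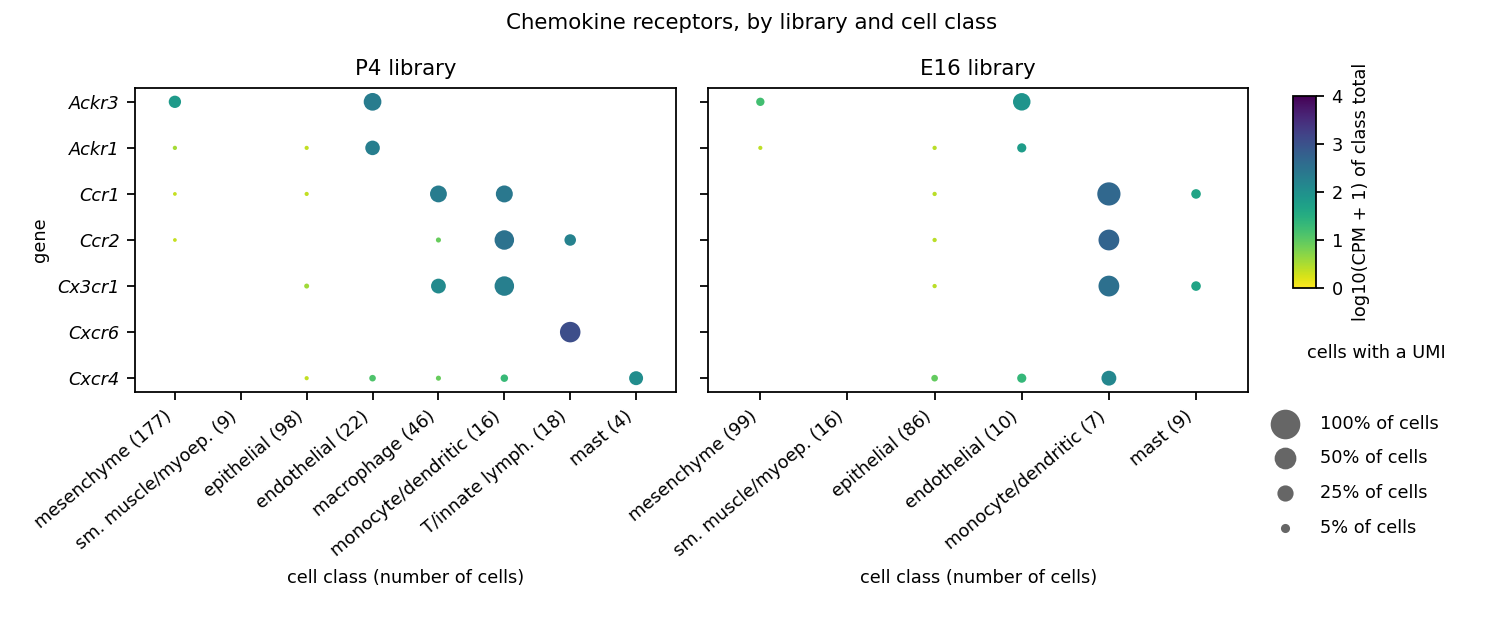
The 5 receptors with at least 30 UMIs together with Ackr1 and Cxcr4, in P4 on the left and E16 on the right, drawn for the same classes as the ligands, with colour for log10(CPM + 1) of the class total and dot area for the share of cells with a UMI. Ccr1, Ccr2 and Cx3cr1 lie in the macrophage and monocyte columns, Cxcr6 in T or innate lymphoid-like cells, and Ackr3 and Ackr1 in endothelial-like cells, with Ackr3 also in mesenchyme-like cells.

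Ccr1, a receptor for Ccl3, Ccl6, Ccl7 and Ccl9, was found in 17 of 46 P4 macrophage-like cells (217 CPM, 145 to 312), in 6 of 16 P4 monocyte- or dendritic-like cells (252 CPM, 134 to 432) and in 5 of 7 E16 cells of that class (455 CPM, 242 to 777). Ccr2, the receptor for Ccl2, Ccl7 and Ccl12, separated these classes. It was found in 1 of 46 P4 macrophage-like cells, in 8 of 16 P4 monocyte- or dendritic-like cells (311 CPM, 178 to 504) and in 4 of 7 E16 cells of that class (525 CPM, 294 to 865), of which 1 cell held 11 of 15 UMIs. T or innate lymphoid-like cells of P4 had 5 further Ccr2 UMIs in 3 of 18 cells. In P4 the class leading for Ccl2 and Ccl7 thus held 1 of the 23 Ccr2 UMIs. Cx3cr1, the receptor of the membrane-bound Cx3cl1, was found in 13 of 46 P4 macrophage-like cells (127 CPM) and in 8 of 16 P4 and 4 of 7 E16 monocyte- or dendritic-like cells (194 CPM and 350 CPM). Its ligand Cx3cl1 had 5 UMIs in 5 P4 epithelial-like cells, and in E16 3 UMIs each in epithelial- and mesenchyme-like cells.

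Cxcr6, the receptor of Cxcl16 on resident T and innate lymphoid cells, had 34 UMIs in the whole data set, all of them in 10 of the 18 P4 T or innate lymphoid-like cells (1132 CPM, 784 to 1582). The E16 library had no cell of this class and no Cxcr6 UMI. Its ligand Cxcl16 had 58 UMIs in P4, 20 in epithelial-, 12 in macrophage-, 12 in monocyte- or dendritic- and 11 in mesenchyme-like cells. The same lymphoid class held 7 of the 8 Ccr7 UMIs and 6 of the 7 Ccl5 UMIs of the data set. Its 26 Cxcl2 UMIs lay in 3 of 18 cells, 16 of them in 1 cell. Cells of this class were shallow, with a median of 1268 UMIs, and thinning to 1342 UMIs left out 9 of the 18.

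Ackr3 and Ackr1, atypical receptors, were the receptors counted most in endothelial-like cells. Ackr3 was found in 9 of 22 P4 endothelial-like cells (214 CPM, 127 to 338) and in 4 of 10 E16 cells (83.3 CPM, 36 to 164). In P4, 9 of the 18 endothelial UMIs lay in 1 cell, without which the level was 113 CPM (51.8 to 215), and 54 of the 72 Ackr3 UMIs of the library were in mesenchyme-like cells. Ackr1, which binds many inflammatory chemokines on venules, was found in 6 of 22 P4 cells (202 CPM, 118 to 323) and in 1 of 10 E16 cells, with 6 UMIs. In P4 they were mainly in cluster 10, led by Cldn5 and Vwf, with Ackr3 in 7 of 11 cells and Ackr1 in 5 of 11, against 2 of 11 and 1 of 11 in cluster 8, led by Fabp4 and Gpihbp1. The second Cxcl12 receptor, Cxcr4, had only 6 UMIs in P4 and 11 in E16, of which 4 lay in 2 of 7 E16 monocyte- or dendritic-like cells and 5 in E16 epithelial-like cells. Over all cells, the other Cxcl12 receptor Ackr3 had 72 UMIs in P4 and 18 in E16.

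For other ligands the known receptor was barely counted. Cxcr2, through which Cxcl1, Cxcl2, Cxcl3, Cxcl5 and Ppbp act, had 1 UMI, in a P4 mast-like cell. Cxcr5, the receptor of Cxcl13, had 1 UMI in a P4 monocyte- or dendritic-like cell. Cxcr3, the receptor of Cxcl9 and Cxcl10, had 6 UMIs in 6 P4 macrophage-like cells. Ccr3, the receptor of Ccl11 and Ccl24, and Ccr6, the receptor of Ccl20, had 0 UMIs. In the P4 library, a count of 0 over the macrophage-like class allows up to 22.5 CPM at 3 counts and over the T or innate lymphoid-like class up to 99.9 CPM. Neutrophil markers were near 0 in the P4 classes of at least 5 cells, at 19.4 CPM or less, and summed to 489.5 CPM in the E16 monocyte- or dendritic-like cells.

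Genes that work with chemokines were followed through further lists. In mesenchyme-like cells, the list of enzymes and matrix proteins that cleave or bind ligands had 4 of 9 measured genes at least 2-fold higher in P4 (44.4%) and 1 lower (11.1%), with a median log2 ratio of 0.83, against -0.19 for all genes, of which 6.8% were higher and 13.7% lower. Dpp4, a peptidase that trims Cxcl12, Cxcl10 and Ccl11, had 97.3 CPM in P4 and 13.8 CPM in E16, a ratio of 7.06 (3.54 to 16). Mmp2, a matrix protease that also cleaves Cxcl12 and Ccl7, had 312 CPM in P4 and 67.4 CPM in E16, a ratio of 4.62 (3.35 to 6.52). Hspg2, the heparan sulphate proteoglycan perlecan, had a ratio of 3.17 (2.12 to 4.86) and Ext1, which builds heparan sulphate chains, one of 2.27 (1.11 to 5.0). Sdc1, a syndecan, was lower in P4 at 0.461 (0.358 to 0.591). Of 6 measured inducers and inflammatory regulators 3 were higher and 0 lower (median log2 ratio 0.79), namely the macrophage growth factor Csf1 and the NF-kB genes Nfkbiz and Rela. Their ratios were 2.88 (1.49 to 6.0), 2.13 (1.39 to 3.33) and 2.11 (1.16 to 4.02). Of 4 adhesion genes (median -0.21) Vcam1, a ligand of leukocyte integrins, was higher at 2.64 (1.76 to 4.05) and 0 were lower. Of 11 genes of receptor signalling (median 0.24) 1 was higher (9.09%) and 2 were lower (18.2%), shares near those of all genes. Prex1, a Rac activator, had 44 UMIs in P4 and 0 in E16, while the G protein genes Gng2 and Gnai3 had ratios of 0.290 (0.141 to 0.561) and 0.438 (0.303 to 0.627). Of 4 other chemokine system genes (median -0.14) Cmtm6 was lower at 0.441 (0.229 to 0.822) and 0 were higher.

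In epithelial-like cells the list of inducers and inflammatory regulators had 3 of 7 measured genes at least 2-fold higher in P4 and 1 lower, with a median log2 ratio of 0.87, against -0.53 for all genes, of which 7.23% were higher and 27.1% lower. Rela and Nfkbia, an NF-kB subunit and the inhibitor that NF-kB induces, had ratios of 3.08 (1.78 to 5.62) and 2.62 (2.30 to 3.0), and Nfkbiz one of 2.79 (1.51 to 5.49). Tgfb1, a cytokine that restrains inflammation, was lower at 0.480 (0.236 to 0.940). The cleavage, adhesion, receptor signalling and other chemokine system lists had 0 genes higher, and the share lower in receptor signalling, 28.6%, was near that of all genes. Of 5 cleavage and binding genes (median -0.91) Sdc1 and Mmp14 were lower, at 0.353 (0.229 to 0.534) and 0.489 (0.267 to 0.875). Of 3 adhesion genes (median -1.27) Itgb1 and Icam1 were lower, at 0.312 (0.216 to 0.443) and 0.416 (0.261 to 0.650). Of 7 receptor signalling genes (median -0.45) Gnai2 and Gnai3 were lower, at 0.416 (0.308 to 0.557) and 0.472 (0.308 to 0.713), and of 3 other chemokine system genes (median -0.76) Cklf was lower at 0.396 (0.167 to 0.879). The list of 14 immediate early genes (median 0.35) had Jund at 2.22 (1.95 to 2.54) and Ier3 at 2.14 (1.47 to 3.17) higher in P4 and 0 lower. When totals were formed without the 50 genes of most UMIs in either library, a scaling tried for the lists after seeing the data, Tgfb1, Mmp14, Icam1, Gnai2, Gnai3 and Cklf were no longer 2-fold lower, and Sdc1 and Itgb1 still were. Under that scaling 5 of the 14 immediate early genes were higher, with Junb, Atf3 and Zfp36 added, 4 of the 7 inducers, with Zfp36 added, and 1 of the 7 receptor signalling genes, Gnb2. Of all genes 12.2% were higher and 13.7% lower under it. In mesenchyme-like cells it added Rgs10 to the receptor signalling genes that were higher and changed no other count. The immediate early list summed to 8855 CPM in P4 and 7095 CPM in E16 epithelial-like cells, and its part in the Cxcl1 and Cxcl2 values was not tested.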

How the data were processed

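Files held whole-number UMI counts per gene and barcode, deposited by the authors without normalization. Cell Ranger and mm10 are listed in the submitters' processing notes, with no version or settings. 10x Genomics stands in the title, Drop-seq in the labels' protocol. Counting by UMI usually drops reads shared by several genes, so near-identical copies are uncertain. The 13 mitochondrial features had 0 UMIs, so the 10% mitochondrial filter removed no barcode. Barcodes with under 200 genes (281 in P4, 178 in E16) were left out, and in the median barcode left out 95.7% (P4) and 95.9% (E16) of UMIs were haemoglobin. Kept cells held 1975814 UMIs in P4 and 1711606 in E16, and 715 to 64020 and 852 to 31749 UMIs each. Scrublet called 1 doublet in each library, and both were kept.

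Both libraries were clustered together with scanpy 1.11.5, without integration and without member genes: 2000 variable genes, 20 components, 15 neighbours, Leiden resolution 1, random seed 0. Clusters took the class of highest marker expression if at least 3 markers were in at least 20% of cells and no other class had more markers among the 10 leading genes. UMIs were summed per class and library and divided by the class total (CPM), not scaled by gene length. Levels have exact Poisson intervals, ratios exact conditional ones and shares exact Clopper-Pearson ones, all at 95%. A count of 0 was set to 3 counts over the class. Stage ratios were counted for genes with at least 30 UMIs in classes of at least 20 cells in both libraries, at 2-fold; with 1 library per stage no p-value was made. The calculations were tested on simulated data. Members with at least 30 UMIs were described in full, those with 10 to 29 with their UMIs, and others by their range or class; list genes were named if among the 3 of a list that changed most. Members and lists were chosen with earlier results of these data known. Ext1, Sdc1 in mesenchyme-like cells, Tgfb1, Mcpt8 with the proteases beside it, and the promoter stretches were chosen after values had been seen. Gene positions are from GENCODE M21, in which 58 of 64 features matched by identifier; promoters are from RefSeq (44 symbols matched). Alternatives are given at the end. One member of the set is not reported here.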

Additional observations from a re-analysis of the deposited data

Results flagged for a closer look

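Ccl2 moved in opposite directions in the 2 classes with a stage ratio, which is why it is listed here. The P4 over E16 ratio was 5.57 (4.02 to 7.90) in mesenchyme-like cells and 0.229 (0.123 to 0.405) in epithelial-like cells. The difference between the classes was not tested, since each stage is 1 library. The epithelial value moved to 0.545 without the E16 cell that held 34 of 58 UMIs, and the mesenchymal one to 4.56 without its richest cell.

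Barcodes left out for having under 200 detected genes, most of whose UMIs were haemoglobin, also held members of the set above the 3 counts that a count of 0 allows. In the P4 barcodes left out there were 9 UMIs of Cxcl12, 8 of Ccl7, 6 of Cxcl2, 5 of Cxcl1 and 5 of Ccl11, among 34186 UMIs that were not haemoglobin. In the E16 barcodes left out there were 6 UMIs of Cxcl12, among 22686.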

How the results depend on the processing

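The settings changed were the minimum of detected genes, the clustering and its random seed, doublets, totals without abundant genes, means over cells, the richest cell left out, UMI floors and the leading fold; the seeds, the doublets, and the values of lists and clusters under these settings were added after seeing the data. The count of 6 members at least 2-fold higher in mesenchyme-like cells stayed within 5 to 8 under all of them. With a floor of 10 UMIs, 2 of 13 members there were lower, and 0 of 6 with a floor of 100. In epithelial-like cells 7 of 10 members were higher and 3 of 10 lower with a floor of 10, and 1 of 1 higher and 0 of 1 lower with a floor of 100. Without the richest cell 0 members were lower in either class, and Cxcl16 in mesenchyme-like cells had a log2 ratio of 0.33 in place of -1.50, since that E16 cell held 18 of 25 UMIs. The count of leading classes in P4 was 7 at 5-fold, and in E16 it was 1 with 1000 variable genes, 1 with 30 components and 3 with each library clustered alone; the cause was not tested. Of 217 log2 ratios 197 stayed within the counting interval and 20 left it. Among the 217, those under the UMI floors of 10 and 100 equal the main ratios by construction, so they could not leave it. The sign was opposite in 5 of the 217, 1 of Cxcl16 as above and 4 of Cxcl13, whose ratio of 1.16 was never 2-fold. Of 247 levels in leading classes 214 stayed within the counting interval and 33 left it. Of 20 shares thinning moved 8 out of their interval. Cxcl13 in mesenchyme-like cells ranged from a ratio of 0.785 with each library clustered alone to 1.57, and Ccl7 from 23.1 to 64.6.

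No paired analysis was possible because each stage is 1 library, and for the same reason no replicate could be left out. In the E16 library the macrophage-like class had 1 cell and the lymphoid class 0, so the 2 stages were not compared there. With at least 300 detected genes the epithelial-like class kept 37 P4 and 39 E16 cells, and the monocyte- or dendritic-like class was not named in either library in 6 of the settings. A gene at 0 UMIs over a class may have up to 3.70 CPM in P4 and 4.59 CPM in E16 mesenchyme-like cells, but up to 58.2 CPM in P4 and 105 CPM in E16 monocyte- or dendritic-like cells.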
